A study of Danio rerio with 96 samples.

Results

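In zebrafish larvae, 4 genes that gave few reads without irradiation and more reads 24 to 48 h after it were followed: cpn1 (ENSDARG00000096720), sema6d (ENSDARG00000011533), bmb (ENSDARG00000096603) and ano11 (ENSDARG00000077327). They are 4 of the 25907 gene IDs in the count table. They were chosen by ID because their CPM values (the count of a gene per 1e6 counts of its library) were low in unirradiated larvae and raised 24 to 48 h after X-ray irradiation. No numeric limit was part of that choice. The values of irradiated against unirradiated larvae at 60 and 84 h postfertilization (hpf) therefore chose the genes, and they are given below as a description without a test.

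Each library was the whole body of 1 larva of an albino line (slc45a2 b4/b4, carried by every group), and 6 larvae were sequenced for each of 4 groups at each of 36, 37, 60 and 84 hpf. FA + XR larvae received 200 μM folic acid (FA) from 35 hpf and 8 Gy of X-rays (XR) at 36 hpf, XR larvae received the same dose after an equal volume of Danieau's solution, FA larvae received 200 μM FA without irradiation, and Cont larvae received the solution alone. The sources do not state whether the 36 hpf libraries of the irradiated groups were taken before or after the exposure. Larvae of a group shared 1 well of a plate, so that well and treatment cannot be told apart and p values cover the spread between larvae only. Totals ran from 243126 to 16470291 counts over the 96 libraries with a median of 3477936, and 13 libraries held under 50% of the median of their time point. Whole larvae mix all tissues, so that a change in the number of cells of a type and a change in RNA per cell cannot be told apart.

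The 4 genes encode proteins of different families. CPN1 of mammals is the catalytic subunit of carboxypeptidase N, a plasma enzyme made by the liver that trims basic residues from the ends of kinins and anaphylatoxins. SEMA6D is a transmembrane semaphorin, one of the guidance cues that act through A-type plexins. Brambleberry, the product of bmb, is needed in the early zebrafish embryo for the fusion of nuclear envelopes into 1 nucleus. Anoctamins, the family of ano11, are membrane proteins that in mammals include calcium-activated chloride channels and lipid scramblases, and no role of ano11 itself is given here. CPM is not corrected for transcript length, and levels are compared between groups within a gene and not between genes.

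Without irradiation, cpn1, sema6d and bmb were detected in many larvae at a few counts. Over the 48 unirradiated larvae of all ages, cpn1 had at least 1 count in 28 larvae with a median of 0.467 CPM, sema6d in 32 larvae with a median of 0.486 CPM, and bmb in 39 larvae with a median of 0.910 CPM. These 3 genes were thus low but not absent. ano11 was detected in 9 of the 48 larvae, with 18 counts in all. In contrast, in the 24 irradiated larvae of 60 and 84 hpf, cpn1, sema6d and bmb had counts in every larva, and ano11 in 20 of 24 larvae with 95 counts in all.

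**Figure D1:**
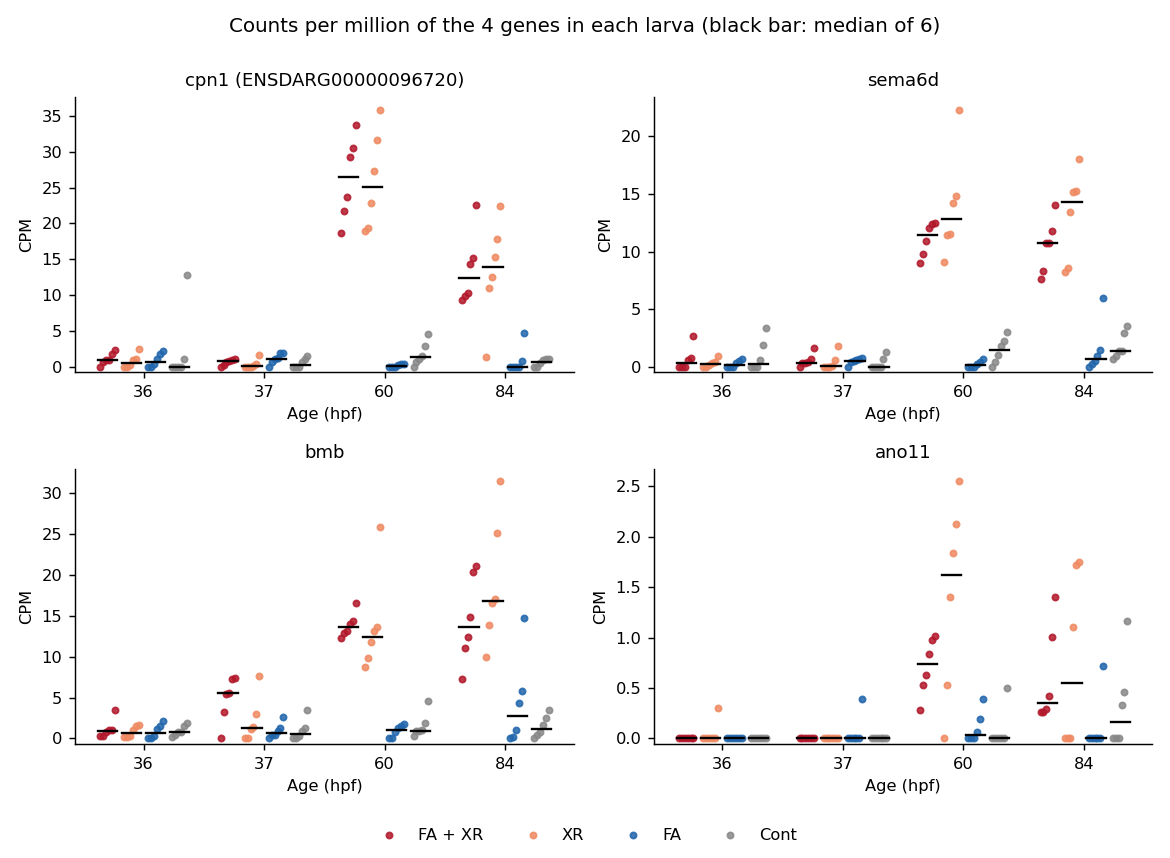
CPM (vertical axis, linear and scaled for each gene) of cpn1, sema6d, bmb and ano11 against age in hpf, with 1 point for each larva, the groups FA + XR, XR, FA and Cont side by side and a black bar at the median of 6 larvae. At 60 hpf all irradiated larvae stood above all unirradiated larvae for cpn1, sema6d and bmb, while the ano11 points of irradiated and unirradiated larvae overlapped, and at 84 hpf 1 XR larva with 1.43 CPM of cpn1 and 1 FA larva with 14.7 CPM of bmb lay apart from their groups.

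For cpn1 at 60 hpf, XR larvae had 18.9, 19.4, 22.9, 27.4, 31.7 and 35.9 CPM, against 0, 0.638, 1.14, 1.49, 2.87 and 4.54 CPM in Cont larvae. With FA, FA + XR larvae had 18.7, 21.7, 23.7, 29.3, 30.6 and 33.7 CPM, against 0, 0, 0, 0.257, 0.387 and 0.389 CPM in FA larvae. Neither pair of groups overlapped. The means were 26 ± 6.85 CPM in XR and 1.78 ± 1.66 CPM in Cont larvae, and 26.3 ± 5.81 CPM in FA + XR and 0.172 ± 0.194 CPM in FA larvae (SD, n = 6 each). Pooled over larvae, XR had 473 counts and Cont 49 counts, a CPM ratio of 13 with an exact 95% interval of 9.66 to 17.8. FA + XR had 1053 counts and FA 7 counts, and the ratio of 118 is only known to lie between 57 and 294 from these 7 counts. All intervals on ratios of summed counts cover counting error only.

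At 84 hpf, cpn1 stood at 1.43, 11, 12.5, 15.3, 17.8 and 22.4 CPM in XR larvae, against 0, 0, 0.545, 0.933, 1.13 and 1.16 CPM in Cont larvae. FA + XR larvae had 9.30, 9.83, 10.3, 14.4, 15.2 and 22.6 CPM, against 0, 0, 0, 0, 0.821 and 4.73 CPM in FA larvae. The groups again did not overlap, although 1 XR larva was close to the Cont larvae. That larva had 1 cpn1 count in a library of 700645 counts, while it had 22 counts of bmb, the highest bmb level of its group at 31.4 CPM, and 6 counts of sema6d. The highest FA value of 4.73 CPM was 2 counts in a library of 423265.

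sema6d, the guidance cue, had 9.12, 11.5, 11.5, 14.2, 14.8 and 22.3 CPM in XR larvae of 60 hpf, against 0, 0.380, 1.02, 1.82, 2.24 and 2.98 CPM in Cont larvae. FA + XR larvae had 8.99, 9.80, 10.9, 12.1, 12.4 and 12.4 CPM, against 0, 0, 0, 0.257, 0.389 and 0.650 CPM in FA larvae. Every irradiated larva stood above every unirradiated one. At 84 hpf, XR larvae ran from 8.26 to 18 CPM with a median of 14.3, against 0.664 to 3.50 CPM with a median of 1.35 in Cont larvae. FA + XR larvae ran from 7.60 to 14 CPM with a median of 10.7, against 0 to 5.97 CPM with a median of 0.713 in FA larvae. No irradiated larva overlapped with an unirradiated larva of the pair at either age. The CPM ratio of the summed counts was 12.3 (95% interval 8.25 to 19) for XR over Cont at 60 hpf and 7.73 (5.63 to 10.8) at 84 hpf.

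bmb had 8.72, 9.80, 11.8, 13.1, 13.7 and 25.8 CPM in XR larvae of 60 hpf, against 0.253, 0.894, 0.925, 0.993, 1.91 and 4.54 CPM in Cont larvae. FA + XR larvae had 12.3, 12.9, 13.1, 14, 14.4 and 16.6 CPM, against 0, 0, 0.755, 1.3, 1.48 and 1.75 CPM in FA larvae. Neither pair overlapped at this age. At 84 hpf, XR larvae had 9.96, 13.9, 16.6, 17.1, 25.1 and 31.4 CPM, against 0, 0.453, 0.817, 1.62, 2.49 and 3.50 CPM in Cont larvae. FA + XR larvae had 7.26, 11, 12.4, 14.8, 20.3 and 21.1 CPM, against 0, 0.239, 1.05, 4.34, 5.85 and 14.7 CPM in FA larvae. Here the groups overlapped, since 1 FA larva with 10 counts in a library of 680281 exceeded 3 of the 6 FA + XR larvae. Markers of the germ line were checked beside bmb, because its known role is in the egg and early embryo. The summed level of the 11 germ line markers was 3.95 to 17.5 CPM in XR larvae and 2.55 to 14.5 CPM in Cont larvae at 60 hpf, and 5.44 to 9.55 CPM in FA + XR larvae and 3.87 to 14.3 CPM in FA larvae, with overlapping ranges. Of the 11, 5 passed the filter and 0 changed in these comparisons. Over all genes, 0.404% were called for XR against Cont and 1.43% for FA + XR against FA at 60 hpf. Nothing is read from 0 calls in so small a list, and the part of the germ line markers in the level of bmb was not tested.

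ano11 did not follow the description as firmly as the other 3 genes. At 60 hpf, XR larvae had 0, 2, 4, 7, 7 and 11 counts (0 to 2.55 CPM), against 1 count in a single Cont larva (0.496 CPM) and 0 counts in the other Cont larvae. FA + XR larvae had 1, 2, 2, 3, 16 and 11 counts (0.281 to 1.01 CPM), against 0, 0, 0, 1, 1 and 2 counts (0 to 0.389 CPM) in FA larvae. In each pair, 5 of 6 irradiated larvae exceeded every unirradiated larva. At 84 hpf the ranges overlapped, with 17 counts over 6 XR larvae (0 to 1.75 CPM) against 9 counts over 6 Cont larvae (0 to 1.17 CPM), and 12 counts over 6 FA + XR larvae (0.259 to 1.40 CPM) against 3 counts in 1 FA larva (0.718 CPM). The CPM ratio of the summed counts was 2.67 (1.12 to 6.79) for XR over Cont and 3.85 (1.04 to 21.3) for FA + XR over FA. At 84 hpf, therefore, the rise of ano11 was not separated from the spread between larvae.

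On the log2 scale of the fit across genes, which moderates low counts, XR against Cont gave 3.71 (SE 0.36) for cpn1, 3.4 (SE 0.40) for sema6d, 3.6 (SE 0.42) for bmb and 4.34 (SE 0.99) for ano11 at 60 hpf. At 84 hpf it gave 4.47 (SE 0.51), 2.91 (SE 0.41) and 3.51 (SE 0.48) for cpn1, sema6d and bmb. FA + XR against FA gave 6.56 (SE 0.48) for cpn1, 5.12 (SE 0.49) for sema6d, 3.34 (SE 0.40) for bmb and 2.05 (SE 0.84) for ano11 at 60 hpf, and 4.89 (SE 0.61), 3.07 (SE 0.49) and 2.23 (SE 0.49) for cpn1, sema6d and bmb at 84 hpf. Leaving out 1 library or the shallow libraries moved some of these fold changes by over 1.5 times on the unlogged scale. Their log2 values follow. For XR against Cont at 60 hpf, ano11 was at 5.82 without the Cont library of 2014270 counts and cpn1 at 4.35 without that of 10806851 counts. For FA + XR against FA, ano11 was at 2.68 at 60 hpf without the FA library of 5141929 counts, and at 84 hpf cpn1 was at 5.92 without the FA library of 8530530 counts and sema6d at 4.15 without that of 1841446 counts. Without the shallow libraries, bmb for XR against Cont at 60 hpf was at 4.20. Each of these 6 values was further from 0 than with all libraries. ano11 passed the filter of a mean count of at least 2.5 at 60 hpf alone, through its irradiated larvae, sema6d failed it at 37 hpf, and cpn1 and bmb passed it at 37, 60 and 84 hpf. Of all genes tested, 0.404% were differentially expressed between XR and Cont at 60 hpf and 1.69% at 84 hpf, and 1.43% between FA + XR and FA at 60 hpf and 1.04% at 84 hpf (adjusted p below 10%). The genes described were taken from these contrasts, and nothing is read from their place among those shares.

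Next, the first hour after irradiation was examined. The choice of the genes did not use the irradiated larvae of this age, but it asked for low levels in unirradiated larvae without naming an age, so that the values are given as a description without a test. At 37 hpf, the groups overlapped in cpn1: XR larvae had 0 to 1.68 CPM and Cont larvae 0 to 1.54 CPM, and FA + XR larvae had 0 to 1.09 CPM and FA larvae 0 to 1.96 CPM. The log2 fold change was 0.13 (SE 0.99, 95% interval -1.81 to 2.07) for XR against Cont and -0.49 (SE 0.84, -2.13 to 1.15) for FA + XR against FA. Both intervals reach over 1 log2 unit to either side of 0, so that they do not exclude changes of this size in either direction. sema6d had 8 counts over the XR and 5 over the Cont larvae, and 12 over the FA + XR and 15 over the FA larvae, too few for the fit. ano11 had 0 counts in XR, FA + XR and Cont larvae and 1 count in FA larvae. In XR larvae 0 counts allow up to 0.138 CPM.

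bmb had its highest median of this age in FA + XR larvae. FA + XR larvae of 37 hpf had 0, 3.19, 5.47, 5.53, 7.26 and 7.39 CPM, against 0, 0.392, 0.394, 0.940, 1.3 and 2.61 CPM in FA larvae. Of the FA + XR larvae 5 of 6 exceeded every FA larva, and the remaining one had 0 counts in a library of 243126. XR larvae had 0, 0, 1.20, 1.43, 2.97 and 7.62 CPM, against 0, 0, 0.329, 0.854, 1.31 and 3.44 CPM in Cont larvae, with wide overlap. The XR larvae with 0 counts were those with the shallow libraries of 581706 and 773785 counts. The log2 fold change was 2.35 (SE 0.67, 95% interval 1.03 to 3.67) for FA + XR against FA and 1.39 (SE 0.75, -0.08 to 2.86) for XR against Cont. The value for XR against Cont was 2.54 without the Cont library of 3200849 counts and 0.72 without the XR library of 3278982 counts. In these 2 comparisons 0.118% and 0.104% of 14380 genes were differentially expressed. bmb was not among these genes, but its low unirradiated levels were part of the choice, and no test result is read from this.

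**Figure D2:**
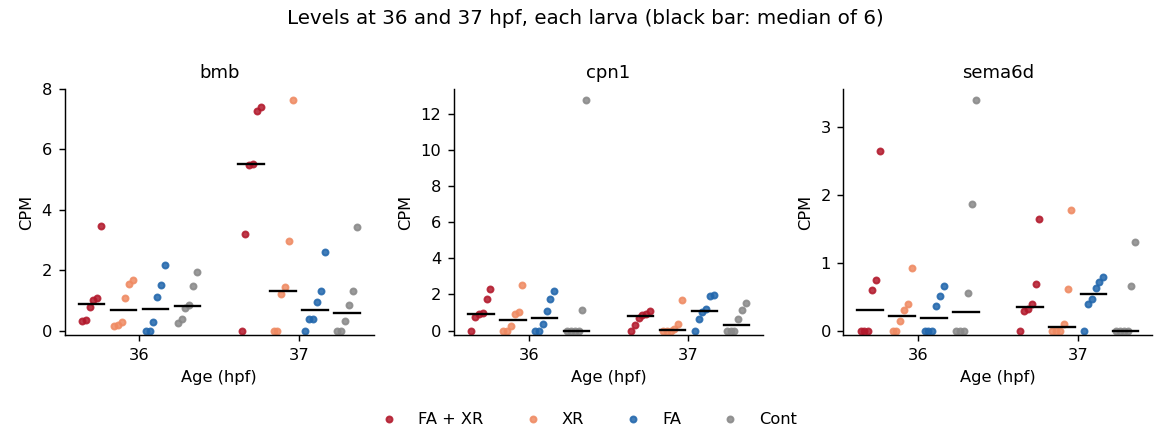
CPM (vertical axis, linear, scaled for each gene) of bmb, cpn1 and sema6d at 36 and 37 hpf, with 1 point for each larva, the groups FA + XR, XR, FA and Cont side by side and a black bar at the median of 6 larvae. The FA + XR larvae of 37 hpf had a median of 5.50 CPM of bmb, against 0.667 CPM in FA larvae, whereas cpn1 and sema6d stayed below 2 CPM at 37 hpf, and a single Cont larva of 36 hpf had 12.8 CPM of cpn1.

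At 36 hpf the levels of all groups were low. sema6d ran from 0 to 2.65 CPM in FA + XR, 0 to 0.921 CPM in XR, 0 to 0.653 CPM in FA and 0 to 3.4 CPM in Cont larvae. bmb ran from 0.331 to 3.47 CPM in FA + XR, 0.140 to 1.67 CPM in XR, 0 to 2.18 CPM in FA and 0.242 to 1.94 CPM in Cont larvae. For cpn1, 1 Cont larva with 46 counts (12.8 CPM) stood apart from the other 5 Cont larvae, which had 0 to 1.12 CPM, and it had 2 counts of sema6d and 7 of bmb. The single ano11 count at this age was in an XR larva.

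Among irradiated larvae, cpn1 had lower means at 84 than at 60 hpf. In FA + XR larvae the means were 13.6 ± 5.04 CPM at 84 hpf and 26.3 ± 5.81 CPM at 60 hpf (SD, n = 6 each). The log2 fold change was -1.06 (SE 0.34, 95% interval -1.72 to -0.41). In XR larvae the means were 13.4 ± 7.13 CPM at 84 hpf and 26 ± 6.85 CPM at 60 hpf. Here the log2 fold change was -0.89 (SE 0.34, -1.57 to -0.22). Whether the fall differed between FA + XR and XR larvae was not tested. The levels of irradiated larvae at 60 and 84 hpf were part of the choice of the genes. A level high by chance at either age could have favored the choice, so that a difference between the ages is not free of it. The values for age, here and for the other genes, are therefore given as a description without a test. With each library left out in turn, the log2 fold change in FA + XR larvae ran from -1.31 to -0.95. In XR larvae it ran from -1.05 to -0.74, and from -0.91 to -0.65 over all alternative settings of edgeR and DESeq2. The XR larvae of 84 hpf included that with 1 cpn1 count in a library of 700645. Between the 2 ages 6.26% of the 16314 genes tested changed in FA + XR larvae and 6.22% in XR larvae.

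For sema6d and bmb the intervals for the change with age include 0, and they carry the same limit from the choice of the genes. sema6d averaged 13.1 ± 3.94 CPM at 84 hpf and 13.9 ± 4.60 CPM at 60 hpf in XR larvae, with a log2 fold change of -0.06 (SE 0.34, 95% interval -0.73 to 0.61). In FA + XR larvae its log2 fold change was -0.19 (SE 0.33, -0.85 to 0.46). bmb averaged 19 ± 7.85 CPM at 84 hpf and 13.8 ± 6.19 CPM at 60 hpf in XR larvae, with a log2 fold change of 0.29 (SE 0.38, -0.46 to 1.04). In FA + XR larvae it was -0.07 (SE 0.37, -0.80 to 0.66). For ano11, below the filter in this fit, the means were 0.762 CPM at 84 hpf and 1.41 CPM at 60 hpf in XR larvae. In FA + XR larvae they were 0.608 CPM at 84 hpf and 0.711 CPM at 60 hpf.

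**Figure D3:**
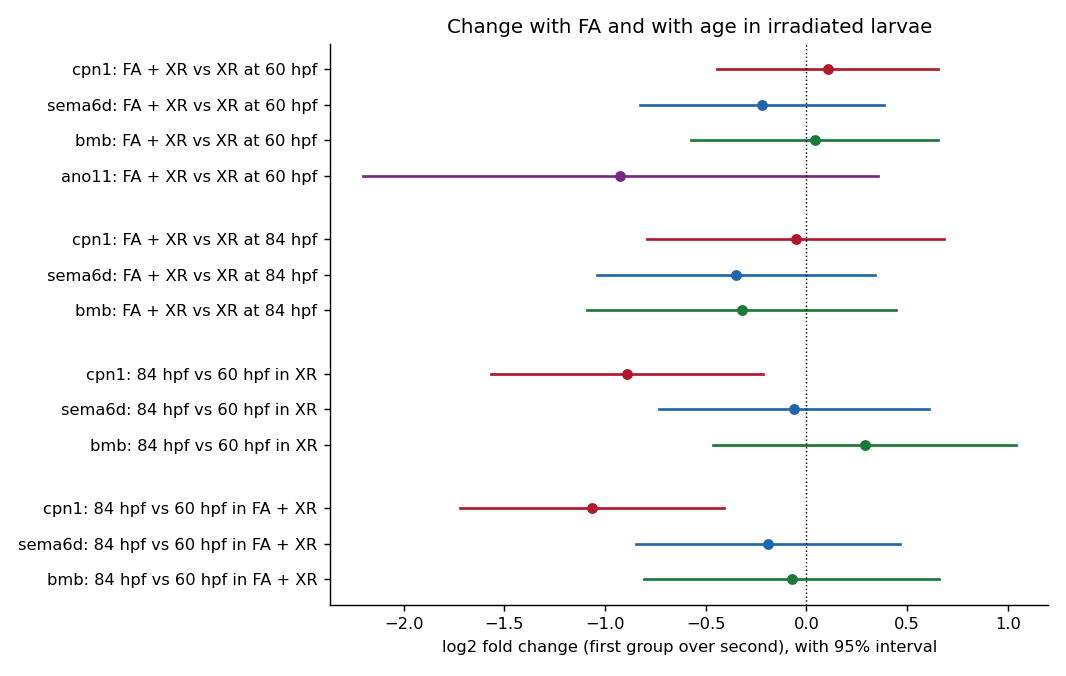
Log2 fold changes (horizontal axis, points) with 95% intervals (lines) of cpn1, sema6d, bmb and ano11 for FA + XR against XR at 60 and 84 hpf and for 84 against 60 hpf in XR and in FA + XR larvae, with ano11 shown where it passed the filter. The 7 intervals for FA + XR against XR include 0, and of the 6 intervals for age those of cpn1 in XR (-1.57 to -0.22) and in FA + XR larvae (-1.72 to -0.41) lie below 0. The levels of irradiated larvae at both ages were part of the choice of the genes, so that the intervals for age are a description without a test. The choice also favored a lack of difference between FA + XR and XR larvae, so that no absence of an effect of FA is read from their intervals.

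Whether FA altered the levels reached after irradiation was asked by comparing FA + XR with XR larvae. The choice of the genes did not compare these groups with each other. It did take genes raised in irradiated larvae at these ages, so that a gene kept low by FA would hardly have been chosen. A lack of difference was thus favored by the choice, so that the p values below are a description and cannot show that FA had no effect. None of the 4 genes passed a test here, as held for nearly all genes (shares below), and nothing is read from this. The CPM ratio of the summed counts, FA + XR over XR, was 0.520 (95% interval 0.311 to 0.872) for ano11 at 60 hpf. At 84 hpf it was 0.797 (0.661 to 0.960) for sema6d and 0.833 (0.708 to 0.980) for bmb. The intervals of cpn1 at both ages, of sema6d and bmb at 60 hpf and of ano11 at 84 hpf included 1. These intervals cover counting error only and not the spread between larvae. At 60 hpf the log2 fold change was 0.11 for cpn1 (SE 0.28, 95% interval -0.44 to 0.66), -0.22 for sema6d (SE 0.31, -0.83 to 0.39), 0.04 for bmb (SE 0.31, -0.57 to 0.65) and -0.93 for ano11 (SE 0.65, -2.20 to 0.35), with an edgeR adjusted p of 1.00 for each and exact permutation p values of 0.693, 0.323, 0.552 and 0.327. At 84 hpf it was -0.05 for cpn1 (SE 0.38, -0.79 to 0.68), -0.35 for sema6d (SE 0.35, -1.04 to 0.34) and -0.32 for bmb (SE 0.39, -1.09 to 0.45), with an edgeR adjusted p of 0.999 for each and exact permutation p values of 0.840, 0.310 and 0.223. ano11 gave an exact permutation p of 0.972 at 84 hpf. The smallest p these permutations can give is 0.00216. The intervals of sema6d and bmb at 84 hpf reach 1 log2 unit below 0, and that of ano11 at 60 hpf reaches further, so that they do not exclude a fall of this size. Across all genes 0% of 16319 at 60 hpf and 0.0062% of 16127 at 84 hpf differed between FA + XR and XR larvae by edgeR, with 505 and 588 genes at an unadjusted p below 0.05, and DESeq2 called 2 and 3 genes.

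The rise with irradiation was also set against FA in an interaction term, the effect of XR with FA less the effect of XR without FA. The term is made of the values that chose the genes, and it is given as a description without a test. At 60 hpf it was 2.84 for cpn1 (SE 0.67), 1.72 for sema6d (SE 0.68), -0.27 for bmb (SE 0.58) and -2.28 for ano11 (SE 1.38). In summed CPM the FA + XR larvae had 1.03 times the level of the XR larvae for cpn1 and 0.887 times for sema6d. Among unirradiated larvae, FA larvae had 7 counts of cpn1 (0.216 CPM over the summed libraries) and Cont larvae 49 (1.91 CPM). For sema6d, FA larvae had 8 counts (0.247 CPM) and Cont larvae 27 (1.05 CPM). The Cont library of 10806851 counts, the deepest of its group, held 31 of the 49 counts and 11 of the 27. Its levels of 2.87 CPM of cpn1 and 1.02 CPM of sema6d lay within the range of the other Cont larvae. With each library left out in turn, the term at 60 hpf ran from 2.21 to 3.04 for cpn1 and from 1.43 to 2.04 for sema6d. At 84 hpf the term was 0.42 for cpn1 (SE 0.89), 0.16 for sema6d (SE 0.61) and -1.28 for bmb (SE 0.70). Over all genes the interaction called 0% at either age by edgeR, with 1046 genes at 60 hpf and 640 at 84 hpf at an unadjusted p below 0.05, and DESeq2 called 1 and 3 genes.

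The symbol cpn1 belongs to 3 gene IDs in the reference table, and the other 2, ENSDARG00000096728 and ENSDARG00000005185, were followed beside the chosen one. Reads of near-identical copies could have been split among the IDs in counting, which was not tested, so that the level of a single ID is uncertain. ENSDARG00000096728 had 7.46 to 15.5 CPM in XR larvae of 60 hpf with a median of 11.8, against 2.73 to 6.20 CPM with a median of 4.47 in Cont larvae, and 8.85 to 15.1 CPM with a median of 12.2 in FA + XR larvae, against 1.3 to 5.14 CPM with a median of 4.1 in FA larvae. Neither pair overlapped. The log2 fold change was 1.20 (SE 0.29, edgeR adjusted p = 0.0545) for XR against Cont and 1.22 (SE 0.28, edgeR adjusted p = 0.0436) for FA + XR against FA. At 84 hpf it was 0.60 (SE 0.28, edgeR adjusted p = 0.526) and 0.94 (SE 0.29, edgeR adjusted p = 0.169), and the groups overlapped. The third ID, ENSDARG00000005185, averaged 52.9 ± 9.80 CPM in XR and 41.5 ± 6.59 CPM in Cont larvae at 60 hpf (SD, n = 6 each). Its log2 fold change was 0.34 (SE 0.17, edgeR adjusted p = 0.806), and 0.28 (SE 0.13, edgeR adjusted p = 0.524) at 84 hpf. For FA + XR against FA it was 0.11 (SE 0.17, edgeR adjusted p = 0.866) at 60 hpf and 0.34 (SE 0.13, edgeR adjusted p = 0.355) at 84 hpf. These values were all above 0, and this ID passed the test in none of the comparisons.

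The call of ENSDARG00000096728 for XR against Cont at 60 hpf was lost without any 1 of 7 libraries, the Cont libraries of 1100461, 1566669, 2014270 and 2236261 counts and the XR libraries of 1031534, 2857285 and 3808846 counts (adjusted p 0.109 to 0.212), and without the shallow libraries (log2 fold change 0.98, adjusted p = 0.227). That for FA + XR against FA was lost without either of the FA + XR libraries of 3565072 and 3792315 counts (adjusted p 0.124 and 0.110) and when only the groups compared were fitted (0.106).

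**Figure D4:**
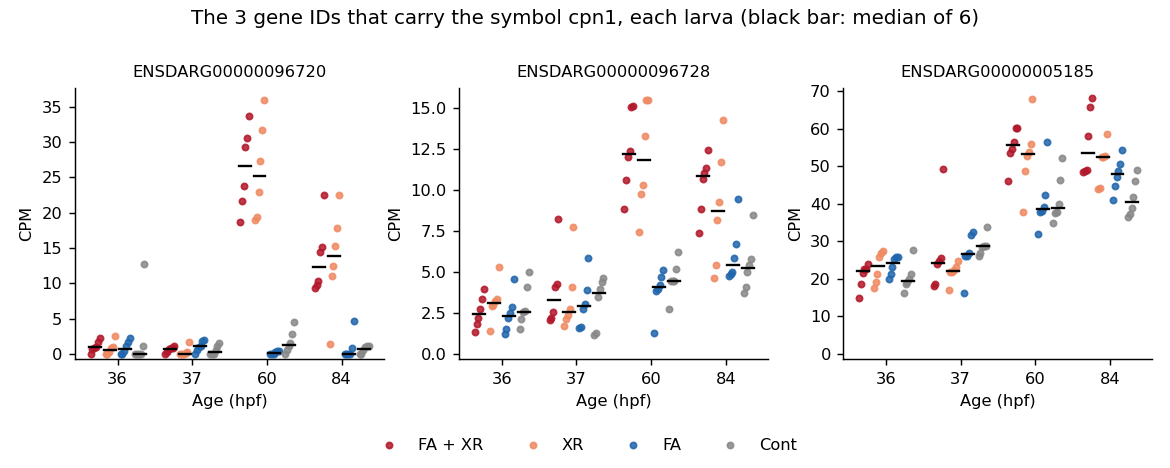
CPM (vertical axis, linear, scaled for each ID) of the 3 gene IDs named cpn1 against age in hpf, with 1 point for each larva, the groups FA + XR, XR, FA and Cont side by side and a black bar at the median of 6 larvae. ENSDARG00000096720 had medians of 25.1 CPM in XR and 1.31 CPM in Cont larvae of 60 hpf, while ENSDARG00000005185 had medians of 53.3 and 38.9 CPM in the same larvae.

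Genes related to the 4 by family or pathway were examined from fixed lists, without the 4 genes themselves. Among the carboxypeptidases, ENSDARG00000096728 was the 1 of 13 tested IDs that changed at 60 hpf in either comparison with irradiation. At 84 hpf, CPB1, a digestive carboxypeptidase of the pancreas, fell in XR against Cont larvae (log2 fold change -1.25, SE 0.30, edgeR adjusted p = 0.0218), as did CPB2, a plasma carboxypeptidase (-1.24, SE 0.32, edgeR adjusted p = 0.0419). For FA + XR against FA, 0 of 14 passed the test, with -1.03 (SE 0.32, edgeR adjusted p = 0.169) for CPB1 and -0.45 (SE 0.33, edgeR adjusted p = 0.75) for CPB2. In these comparisons the median over the list was 0.06 and 0.11 at 60 hpf and -0.17 and -0.30 at 84 hpf, beside 0.00, 0.06, 0.00 and 0.01 over all genes. Among genes of the kinin and anaphylatoxin system, which holds precursors of the peptides that carboxypeptidase N trims and the receptors of these peptides, the complement genes c3a.1 (1.1, SE 0.19, edgeR adjusted p = 0.00025) and c3a.3 (1.08, SE 0.32, edgeR adjusted p = 0.0963) rose in XR against Cont larvae at 84 hpf, and the other 7 tested did not pass. None of the 8 tested at 60 hpf passed in either comparison, nor any of the 9 for FA + XR against FA at 84 hpf. Of all genes tested, 0.404% were called for XR against Cont at 60 hpf and 1.69% at 84 hpf. The shares for FA + XR against FA were 1.43% and 1.04%. Both lists are small, and nothing is read from the number of their members called.

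cpn1 is a liver gene in mammals, and the summed level of 8 liver markers was set beside it. At 60 hpf it was 5502 to 6962 CPM in XR larvae and 6413 to 7323 CPM in Cont larvae, and 5498 to 6130 CPM in FA + XR larvae and 5233 to 5902 CPM in FA larvae. The median of the sum was lower in XR than in Cont larvae (6191 and 6619 CPM) and higher in FA + XR than in FA larvae (5842 and 5565 CPM). At 84 hpf the sum was 5909 to 6708 CPM in XR larvae with a median of 6131, against 6102 to 8523 CPM with a median of 7176 in Cont larvae. FA + XR larvae had 5327 to 6707 CPM with a median of 6582, against 6495 to 7938 CPM with a median of 6800 in FA larvae. The sum did not follow each marker. From 60 to 84 hpf in XR larvae, the log2 fold change was 4.17 for fabp10a, 6.86 for TTR and -0.67 for fetub. Of the 8 tested, 4 were called higher and 1 lower, where 6.22% of all genes were called. The median of the sum was 6191 CPM at 60 hpf and 6131 CPM at 84 hpf in these larvae. The part of the liver markers in the level of cpn1 was not tested. At 60 hpf, 0 of 7 tested liver markers changed in XR against Cont larvae (0.404% of all genes) and 1 of 7 rose in FA + XR against FA larvae (1.43% of all genes), with list medians of -0.15 and -0.29 on the log2 scale, opposite in sign to the sum for FA + XR against FA. At 84 hpf, 1 of 8 rose and 1 fell in XR against Cont larvae (1.69% of all genes) and 1 rose in FA + XR against FA larvae (1.04% of all genes), with list medians of -0.21 and 0.02. None of the 3 blood and 4 phagocyte markers changed in irradiated against unirradiated larvae at 60 or 84 hpf. At 84 hpf 1 of 6 muscle markers rose and 2 of 7 neuronal markers fell in XR against Cont larvae, where 1.69% of all genes were called. In FA + XR against FA larvae, where 1.04% were called, 2 of 6 muscle markers rose and 2 of 7 neuronal markers fell. The lists are small, and nothing is read from these shares.

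Relatives of the other 3 genes did not pass the test with irradiation. Of 10 class 6 semaphorin and A-type plexin IDs, 3 passed the filter and none passed at 60 or 84 hpf, with list medians between -0.08 and 0.21 over the 4 comparisons. For XR against Cont, SEMA6C had log2 fold changes of -0.08 (SE 0.22) at 60 hpf and 0.46 (SE 0.21) at 84 hpf, with edgeR adjusted p values of 0.993 and 0.502. sema6ca, the other class 6 semaphorin tested, had -0.19 (SE 0.33) and 0.00 (SE 0.25), with edgeR adjusted p values of 0.991 and 0.998. None of 7 tested anoctamins passed at either age, with list medians between 0.01 and 0.28. None of 16 tested genes of the nuclear envelope, the structure that brambleberry acts on, passed, with list medians between -0.04 and 0.00 over the 4 comparisons. Over all genes, 0.404% at 60 hpf and 1.69% at 84 hpf were called for XR against Cont. For FA + XR against FA the shares were 1.43% and 1.04%. With lists this small, nothing is read from the lack of calls.

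The pattern over groups and ages was compared with that of every other gene by Pearson's r over the 16 means of 6 larvae, among 15699 genes. These r values describe patterns and share the choice of the 4 genes, the libraries and their depth. Among the 3 genes most like cpn1 were SEMA6D (r = 0.952) and ghrh (0.930). The 3 genes most like sema6d were ghrh (0.953), cpn1 (0.952) and RHBDF1 (0.940). Among those of bmb were si:dkey-40h20.1 (0.975) and si:dkey-85n7.7 (0.959), and those of ano11 were ENSDARG00000096728 (0.958), SEMA6D (0.941) and rnf169 (0.933). Between the 4 genes r ranged from 0.839 for bmb and ano11 to 0.952 for cpn1 and sema6d. By Spearman's rank correlation, 0 of the 3 genes stayed among the first 3 for each of the 4 genes. SEMA6D was at rank 2713 for ano11, and ghrh and cpn1 were at ranks 1592 and 1199 for sema6d.

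Within groups, no pair of the 4 genes was correlated at an adjusted p below 5% (permutation test). Over the 24 irradiated larvae of 60 and 84 hpf, after subtracting the mean of each group, cpn1 and sema6d had r = 0.50 (permutation p = 0.0643, adjusted over 6 pairs p = 0.386) and a rank correlation of 0.28 (permutation p = 0.216, adjusted p = 0.972). Without the 2 larvae farthest from the median of cpn1, r was 0.06. Without libraries under 50% of the median total it was -0.08. The other 5 pairs had r between -0.15 and 0.12, with permutation p values from 0.554 to 0.932 (adjusted p = 0.932 for each). The log2 total of the library had r = 0.38 with cpn1, 0.54 with ano11, 0.20 with sema6d and 0.02 with bmb in the same larvae.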

How the data were processed

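RNA of single larvae was sequenced, and the authors deposited a table of estimated counts that they made with the cDNA sequences of Ensembl (build GRCz11). The sources used here name no quantifier. Of the deposited estimated counts 3 were not whole, and these were rounded. The authors' table of library properties, which also holds each library's total count, maps each column to a group, and 0 columns were left unmapped. The columns carry no replicate number. Where gene IDs lacked a symbol in the reference table, no name was given (23608 of 25907 IDs had one).

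edgeR 4.0.16 (R 4.3.3; TMM factors, quasi-likelihood test, Benjamini-Hochberg adjustment over all genes tested) was fitted to the 24 libraries of a time point, or to the 48 libraries of 60 and 84 hpf for the change with age. Only genes whose counts averaged 2.5 or more in the libraries of a fit were tested, and differential expression means an adjusted p below 10%. The threshold and filter follow the study's methods, whose own test (TCC) was not run. Scripts were tested on simulated data. The SE is the log2 fold change divided by the square root of F. CPM used total counts. Exact two-sided permutation tests used log2 CPM with a prior count of 2 over all splits of 6 against 6 larvae, and correlations used 100000 permutations within groups. A count of 0 over a group allows up to 3 counts of its total. Alternatives were DESeq2 1.42.0, RLE factors, no filter, filterByExpr, fits of only the groups compared, a threshold of 5%, leaving out shallow libraries and each library in turn, a prior count of 0.5, CPM with TMM factors and Spearman's rank correlation. Figures used matplotlib 3.10.9 (Python 3.11.15).

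The 4 genes, the gene lists and the markers were chosen with earlier results of these data known. Named genes are the 4 genes, IDs that share their symbols, the called members of the lists, and the 3 genes most like each of the 4. Results of 1 further gene list and of 1 gene among those most like cpn1 and bmb are not reported here. Marker lists of muscle, neurons, blood and phagocytes were measured beside those of liver and germ line. No sequences were used here.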

Additional observations from a re-analysis of the deposited data

Results flagged for a closer look

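Among 51 sets of 6 larvae (1 gene, group and age, with more than 3 counts in some larva), 8 held a larva whose gap to the next as a share of the range exceeded Dixon's 95% limit. Chance gives about 1 in 20 sets of normally distributed values of equal precision. The rate for low counts from libraries of unequal depth, as here, was not measured. For cpn1 they were a Cont larva of 36 hpf with 12.8 CPM (46 counts, next 1.12 CPM), an XR larva of 37 hpf with 1.68 CPM (7 counts, next 0.357 CPM) and an FA larva of 84 hpf with 4.73 CPM (2 counts, next 0.821 CPM). For sema6d they were an FA + XR larva of 36 hpf with 2.65 CPM (8 counts, next 0.744 CPM), an XR larva of 37 hpf with 1.78 CPM (5 counts, next 0.610 CPM) and an FA larva of 84 hpf with 5.97 CPM (11 counts, next 1.47 CPM). For bmb they were an FA + XR larva of 36 hpf with 3.47 CPM (14 counts, next 1.09 CPM) and an XR larva of 60 hpf with 25.8 CPM (97 counts, next 13.7 CPM). The last of these had 119 counts of cpn1, 43 of sema6d and 2 of ano11, within the range of its group.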

How the results depend on the processing

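No paired analysis was possible because no column of counts bears a replicate number. The fold changes of the 4 genes kept their direction under the alternatives with 2 exceptions near 0, both without the libraries under 50% of the median total: bmb in FA + XR against XR at 60 hpf (-0.041) and sema6d at 84 against 60 hpf in XR (0.17). In the same setting the within-group r became -0.074 for bmb and ano11, -0.22 for cpn1 and ano11, 0.27 for cpn1 and bmb, -0.085 for cpn1 and sema6d and 0.20 for sema6d and bmb, none past the threshold. DESeq2 gave no adjusted p for 11 fits of the named genes. For ano11 in XR against Cont at 60 hpf no filter gave 4.25. Depth limits ano11 most, with 95 counts over 24 irradiated larvae.

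Counts of differentially expressed genes depended more on the setting. FA + XR against FA at 60 hpf gave 947 genes with DESeq2, 405 with RLE factors, 367 with filterByExpr, 28 with only the groups compared, 59 at 5% and 426 without shallow libraries. It gave 26 (DESeq2) and 37 (no filter) at 37 hpf and 356 (DESeq2) at 84 hpf. XR against Cont gave 29 (DESeq2), 26 (no filter) and 32 (without shallow libraries) at 37 hpf, 131 (DESeq2) and 148 (only the groups compared) at 60 hpf, and 181 (5%) and 418 (without shallow libraries) at 84 hpf. FA + XR against XR gave 2 (DESeq2), 1 (no filter) and 3 (only the groups compared) at 60 hpf, and 3, 6 and 7 at 84 hpf. The interaction gave 1 with DESeq2 and 1 with no filter at 60 hpf, and 3, 8 and, without shallow libraries, 2 at 84 hpf. Age in FA + XR larvae gave 1615 with only the groups compared. The cause was not tested.

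Leaving out each library in turn gave 9 to 25 (37 hpf), 37 to 600 (60 hpf) and 114 to 188 genes (84 hpf) for FA + XR against FA, 8 to 14, 49 to 67 and 176 to 291 for XR against Cont, 0 to 1 (60 hpf) and 1 to 3 (84 hpf) for FA + XR against XR, 0 to 1 and 0 to 2 for the interaction, and 783 to 1018 in XR and 842 to 1015 in FA + XR larvae for age. For FA + XR against FA at 60 hpf the count was 37 without the FA + XR library of 3565072 counts and 600 without the FA library of 3075416 counts, and it moved by over 1.5 times for 10 of the 12 libraries. Signs turned in this way only for values near 0, with ranges for FA + XR against XR of -0.0058 to 0.20 (cpn1, 60 hpf), -0.30 to 0.11 (cpn1, 84 hpf) and -0.045 to 0.33 (bmb, 60 hpf), for age of -0.23 to 0.056 (bmb, FA + XR) and -0.16 to 0.073 (sema6d, XR), for the interaction of -0.62 to 0.12 (bmb, 60 hpf) and -0.27 to 1.24 (sema6d, 84 hpf), and for XR against Cont at 37 hpf of -0.26 to 0.79 (cpn1).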
